A study of Mus musculus with 24 samples.

Results

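Immediate early genes are switched on within minutes of synaptic input, without new protein synthesis, when calcium and kinase signals reach transcription factors already bound at their promoters. In forebrain neurons their transcripts are widely read as a mark of recent neuronal activity. This account covers 10 of them, *Arc*, *Fos*, *Fosb*, *Junb*, *Egr1*, *Egr2*, *Egr4*, *Npas4*, *Nr4a1* and *Ier5*, taken by name from the 47643 gene symbols of a table of brain RNA-seq. Most code for transcription factors, and *Arc* codes for a synaptic protein.

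The table held 24 libraries of bulk RNA from 3 brain regions (neocortex, cerebellum and hippocampus), with 4 LLC and 4 control libraries in each. The mice were C57BL/6J males 4 months old. LLC mice were injected with cells named only LLC in the labels, and the samples were taken about 3 weeks later. The title of the series speaks of melanoma, and the labels do not spell the name out. Control mice received a mock injection and no tumour cells. The libraries are called by the number in their titles, 1 to 4 for LLC and 14 to 17 for control. The same numbers recur in the 3 regions, and the labels do not say that a number marks the same animal.

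Values were in TPM, transcript levels that allow for transcript length and are scaled to 1 total per library. Read depth cannot be had from them, and 14368 to 14847 genes reached 1 TPM in a library. Summed region markers were highest in their own region in every library, but cerebellar LLC library 1 and, less so, cerebellar control 14 stood apart from their groups. Summed markers of cerebellum came to 2827 TPM in cerebellar LLC library 1 and to at least 4896 TPM in the other 3 LLC libraries. The same library held 83.4 TPM of neocortex markers and 4420 TPM of oligodendrocyte markers, so the cerebellar results were also computed without it. Cerebellar control 14 held 35.0 TPM of neocortex markers, against 6.00 to 13.6 TPM in controls 15 to 17. It had the lowest cerebellum sum (4555 TPM) and the highest oligodendrocyte sum (3342 TPM) of the cerebellar controls. Summed choroid plexus markers in hippocampus ranged from 135 to 8321 TPM, the highest in LLC library 2. Markers of erythroid cells ranged from 1124 to 1506 TPM in neocortical controls and from 3564 to 15176 TPM in the LLC libraries.

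The 250 bases before the start of 5 of the genes are shown because such stretches are among those where activity-dependent factors are known to act. They come from RefSeq on GRCm38.p6, whose table had windows for 8 of the 10 genes, all but *Arc* and *Egr1*. Capitals mark the core of the cAMP response element (TGACG on either strand, CGTCA as read here), bound by CREB, and the CArG box, bound by serum response factor. The windows are *Fos* at chr12:85473640-85473889 (plus strand), *Nr4a1* at chr15:101266596-101266845 (plus), *Npas4* at chr19:4989972-4990221 (minus), *Egr2* at chr10:67537619-67537868 (plus) and *Ier5* at chr1:155099637-155099886 (minus).
Fos: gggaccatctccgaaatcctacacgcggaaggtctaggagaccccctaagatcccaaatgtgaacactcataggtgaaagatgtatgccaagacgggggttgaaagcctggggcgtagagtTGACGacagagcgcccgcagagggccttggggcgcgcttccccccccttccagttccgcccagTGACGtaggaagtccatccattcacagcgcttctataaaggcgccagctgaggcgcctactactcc
Nr4a1: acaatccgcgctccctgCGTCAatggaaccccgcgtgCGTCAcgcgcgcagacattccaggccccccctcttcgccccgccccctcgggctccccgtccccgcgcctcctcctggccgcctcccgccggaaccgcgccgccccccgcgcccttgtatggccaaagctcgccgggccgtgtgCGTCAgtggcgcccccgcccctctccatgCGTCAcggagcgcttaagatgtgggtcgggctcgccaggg
Npas4: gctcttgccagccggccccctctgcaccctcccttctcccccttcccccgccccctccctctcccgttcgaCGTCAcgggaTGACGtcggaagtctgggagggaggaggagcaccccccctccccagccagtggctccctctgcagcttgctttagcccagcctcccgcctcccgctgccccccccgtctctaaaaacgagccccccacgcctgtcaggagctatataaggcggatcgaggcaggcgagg
Egr2: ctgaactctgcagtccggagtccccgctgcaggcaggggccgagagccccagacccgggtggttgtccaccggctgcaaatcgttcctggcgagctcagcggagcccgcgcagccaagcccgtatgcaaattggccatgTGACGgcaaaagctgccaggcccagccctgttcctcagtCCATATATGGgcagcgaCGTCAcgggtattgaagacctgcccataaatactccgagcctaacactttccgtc
Ier5: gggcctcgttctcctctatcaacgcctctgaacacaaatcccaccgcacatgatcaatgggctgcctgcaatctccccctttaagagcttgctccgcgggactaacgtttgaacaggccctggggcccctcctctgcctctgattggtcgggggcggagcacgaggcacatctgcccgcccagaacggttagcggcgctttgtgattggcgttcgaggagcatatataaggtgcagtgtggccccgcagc
The core TGACG was found in 7 of the 8 genes with a window and in 17.8% of all 32851 windows of that length. *Nr4a1* held 4 copies, and *Fos*, *Npas4* and the *Egr2* window shown held 2 each. Within these 250 bases the CArG box occurred in 1 of the 8 genes, *Egr2*, in 4 of its 5 windows, and in 1.47% of all windows. The AP-1 site TGANTCA, the sequence that Fos and Jun proteins bind, was in none of the 8 genes and in 6.75% of all windows. *Ier5* was the gene with no match to any of these motifs. A match is a string of letters and was not tested for binding, and a gene can have several windows. Bases further from the start were not searched, so a gene without a match here may have sites elsewhere.

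In control mice the mean of each of the 10 genes was highest in neocortex, although *Fos* against cerebellum and *Npas4* against hippocampus missed the test given below. *Egr1*, a zinc-finger factor, averaged 223 ± 66.9 TPM (SD, n = 4, as for all group values) and *Arc* 192 ± 73.7 TPM in neocortex. Next came *Nr4a1* at 119 ± 38.3 TPM, *Junb* at 99.0 ± 33.5 TPM and *Ier5* at 87.9 ± 6.04 TPM. The ranges of these 5 genes overlapped from each to the next. *Egr4* at 42.3 ± 15.7 TPM and *Fos* at 36.8 ± 15.3 TPM were lower and overlapped each other, and *Fosb*, *Npas4* and *Egr2* lay between 9.62 and 11.8 TPM. *Ier5* varied least among the neocortical controls, with an SD of 6.88% of its mean, against 19.6% to 50.5% for the other 9 genes.

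The order differed in the other regions. Hippocampal controls had *Arc* first at 87.7 ± 11.6 TPM, followed by *Junb*, *Nr4a1* and *Egr1* between 57.3 and 63.1 TPM, all overlapping their neighbours. Cerebellar controls had *Nr4a1* first at 34.0 ± 10.3 TPM and *Fos* next at 30.2 ± 18.8 TPM, which overlapped. *Egr2* was almost absent from cerebellum, at 0 to 0.0936 TPM in the controls and 0.0234 to 0.116 TPM in the LLC libraries. *Fosb* was also low there, at 0.842 ± 0.340 TPM in controls and 0.522 ± 0.188 TPM in LLC. These 2 genes fell under the mean of 1 TPM required for testing LLC against control in cerebellum and have no test there. All 10 genes passed that minimum in neocortex and hippocampus.

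**Figure D1:**
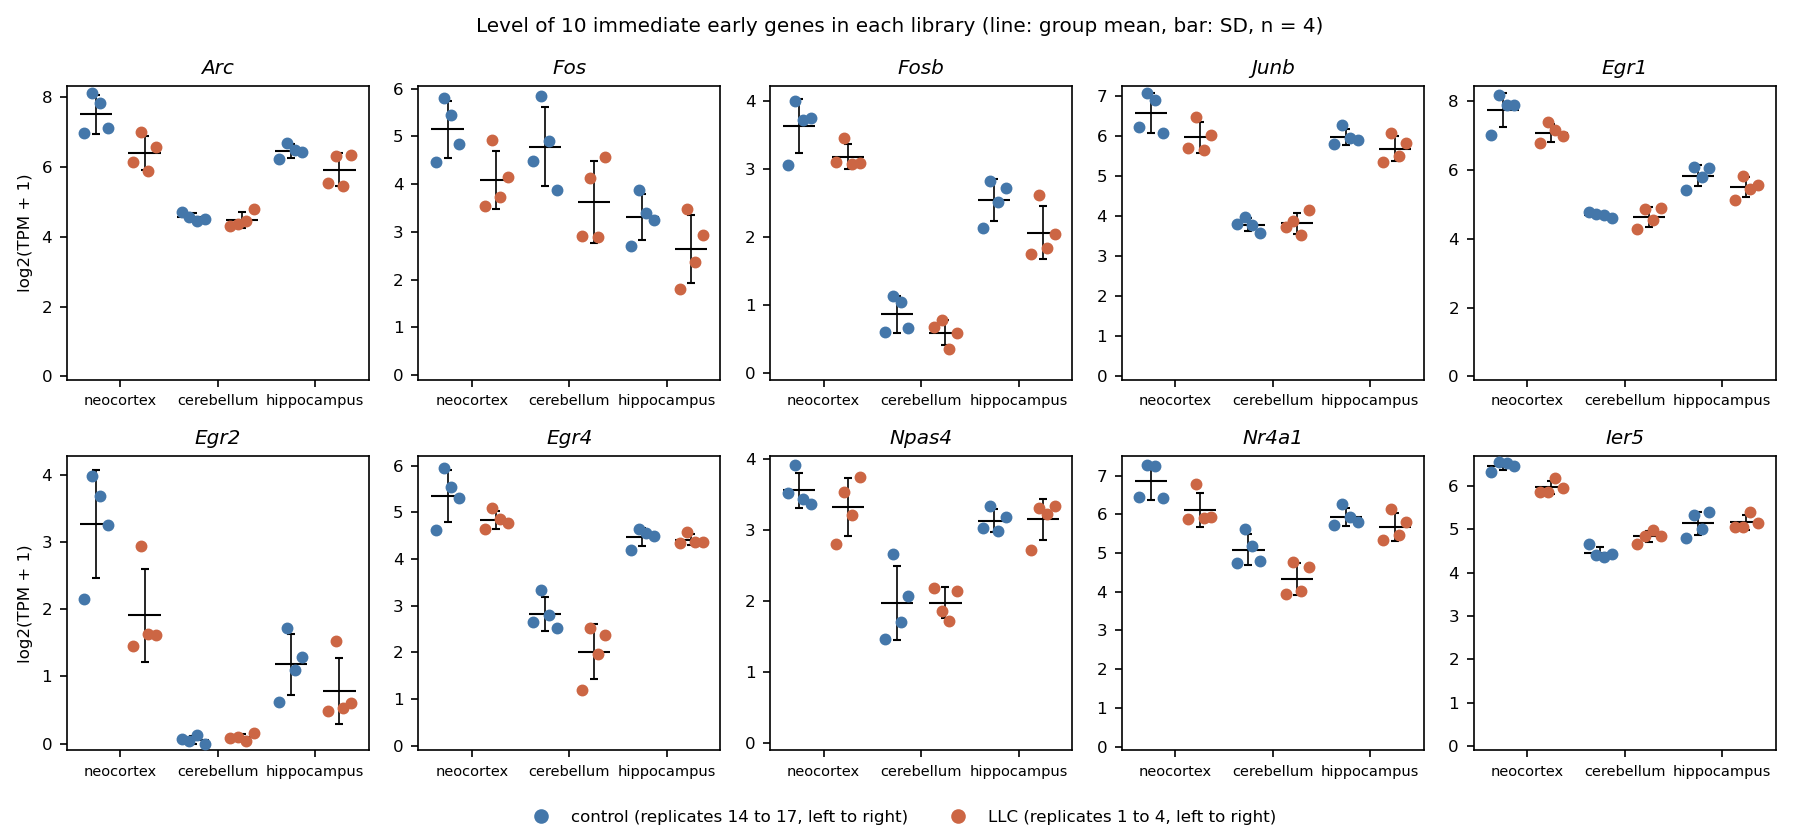
Level of each gene as log2(TPM + 1) in each library (points, vertical axis) by region (horizontal axis), controls 14 to 17 in blue and LLC 1 to 4 in orange, each left to right, with the group mean (line) and SD (bar, n = 4). Neocortex is highest for most genes, *Egr2* is near 0 in cerebellum, and *Fos* in cerebellar controls (30.2 TPM) is close to its neocortical level (36.8 TPM).

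Between control regions, 9 of the 10 genes were lower in cerebellum than in neocortex, where 24.3% of 14729 genes tested were lower (limma on log2(TPM + 1), Benjamini-Hochberg adjustment over all genes tested, threshold 0.05). The exception was *Fos*, which differed by -0.36 ± 0.38 (log2 fold change ± SE, adjusted p = 0.376). On this scale the differences of *Egr2* (-3.21 ± 0.31), *Egr1* (-3.05 ± 0.20) and *Arc* (-2.95 ± 0.20) were the 3 most negative. The added 1 TPM understates the changes of *Egr2* and *Fosb*, at 0.0408 and 0.842 TPM in cerebellar controls. Over the alternative fits the most negative values were -5.97 for *Egr2*, -3.69 for *Fosb*, -3.37 for *Egr1* and -3.27 for *Arc*. The order of *Fosb*, *Egr1* and *Arc* therefore depends on the processing. In hippocampus 9 genes were lower than in neocortex, where 21.4% of all genes were, led by *Egr2* (-2.08 ± 0.31), *Egr1* (-1.91 ± 0.20) and *Fos* (-1.84 ± 0.38). *Npas4* missed the threshold there (-0.43 ± 0.21, adjusted p = 0.0865), and passed it after median-ratio scaling or quantile normalization.

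Hippocampus exceeded cerebellum for 8 of the 9 genes tested, against 27% of all genes. On the log2(TPM + 1) scale *Junb* (2.20 ± 0.19) and *Arc* (1.90 ± 0.20) differed most. *Fosb*, low in cerebellum, gave 1.69 ± 0.20 there. Over the alternative fits the highest values were 2.46 for *Fosb*, 2.43 for *Junb* and 2.14 for *Arc*. *Egr2*, at 1.35 TPM in hippocampus and 0.0408 TPM in cerebellum, was not tested. *Fos* was lower in hippocampus (-1.47 ± 0.38, adjusted p = 0.00244), as 56% of all genes were. *Fos* was therefore the gene of the 10 whose level in cerebellum exceeded that in hippocampus. The median of all genes was 0.31 in cerebellum against neocortex and -0.23 in hippocampus against cerebellum, and became 0.01 and -0.02 after median-ratio scaling. That scaling moved the calls over all genes from 8930 higher and 3575 lower to 5921 and 5894 in cerebellum against neocortex. It moved them from 5934 and 3110 to 4421 and 4537 in hippocampus against neocortex, and from 4002 and 8301 to 5781 and 5955 in hippocampus against cerebellum. The directions of the 10 genes were the same under both scalings. Regions differ in cell types, and in bulk RNA fewer cells of a type and less RNA per cell cannot be told apart.

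In neocortex, *Arc* and *Ier5* fell in the LLC mice, and the means of the other 8 genes were lower without passing the test. *Arc*, whose protein drives removal of glutamate receptors from synapses, fell to 45.3% of its control mean, and *Ier5*, a growth-factor-inducible nuclear protein, to 70.7%. That is 2 of 10 genes called lower, where 2.95% of 14485 genes tested were lower and 8.54% were called in either direction. The 10 genes and the lists of related genes were chosen with earlier results of these data known. Shares of them called, here and below, are therefore descriptions and not tests of the lists. Over all genes 809 rose and 428 fell, or 707 and 575 after median-ratio scaling. At an unadjusted p under 0.05, 9 of the 10 genes counted, against 29.8% of all genes. The median log2 fold change of the 10 was -0.63, and that of all genes 0.01.

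*Arc* (chr15:74669083-74672570, minus strand, build GRCm38 as for all gene positions here) stood at 125, 279, 227 and 137 TPM in neocortical controls 14 to 17. In LLC libraries 1 to 4 it stood at 69.5, 127, 57.6 and 93.9 TPM. LLC library 2 overlapped the lowest control, 14, and the other 3 LLC libraries lay below all controls. The log2 fold change was -1.12 ± 0.29 (adjusted p = 0.0425). Without any 1 of LLC libraries 1, 2 or 3 or of controls 15, 16 or 17 the call was lost, with adjusted p values from 0.0570 to 0.123 and fold changes from -0.91 to -1.32.

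*Ier5* (chr1:155096361-155099636, minus strand, a single exon) stood at 79.6, 93.4, 91.0 and 87.4 TPM in neocortical controls 14 to 17 and at 57.6, 57.5, 72.0 and 61.4 TPM in LLC 1 to 4. Every LLC library lay below every control, which held in the lower direction for 1 of the 10 genes and for 6.18% of all genes. The log2 fold change was -0.50 ± 0.07 (adjusted p = 0.00829). The call was kept in every alternative fit and without each library in turn.

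Among the AP-1 genes, *Fos* was 21.2, 55.1, 42.9 and 27.8 TPM in neocortical controls 14 to 17 and 10.7, 29.2, 12.3 and 16.8 TPM in LLC 1 to 4. LLC library 2 overlapped the controls and the other 3 lay below them. Its log2 fold change was -1.06 ± 0.33 (adjusted p = 0.0689). *Fosb*, a relative of *Fos* with a long-lived splice form, averaged 11.8 ± 3.21 TPM in controls and 8.15 ± 1.24 TPM in LLC (-0.45 ± 0.18, adjusted p = 0.119). *Junb*, a partner of Fos proteins, averaged 99.0 ± 33.5 and 63.8 ± 18.2 TPM (-0.60 ± 0.24, adjusted p = 0.131). *Junb* shares 173 exonic bases with *Prdx2* on the opposite strand, and whether reads were counted by strand is not stated in the sources, so its level is uncertain. *Prdx2* averaged 155 ± 3.71 TPM in neocortical controls and 145 ± 6.32 TPM in LLC.

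Of the zinc-finger genes, *Egr2* was 3.42, 14.7, 11.8 and 8.48 TPM in neocortical controls 14 to 17 and 1.73, 6.67, 2.09 and 2.06 TPM in LLC 1 to 4. Its mean in LLC was 32.6% of that in controls, and control 14 and LLC library 2 made the groups overlap. Its log2 fold change of -1.35 ± 0.41 was the most negative of the 10 and missed the threshold (adjusted p = 0.0646). *Egr1* stood at 129, 288, 239 and 236 TPM in controls and at 110, 168, 142 and 126 TPM in LLC. Here too control 14 was the one control inside the LLC range (-0.66 ± 0.22, adjusted p = 0.0795). *Egr4* averaged 42.3 ± 15.7 TPM in controls and 27.9 ± 3.89 TPM in LLC (-0.51 ± 0.23, adjusted p = 0.167).

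*Nr4a1*, an orphan nuclear receptor, was 86.6, 154, 150 and 85.2 TPM in neocortical controls and 57.5, 108, 58.9 and 60.1 TPM in LLC. LLC library 2 lay inside the control range and the other 3 below it (-0.73 ± 0.25, adjusted p = 0.0880). *Npas4*, a bHLH-PAS factor known for its dependence on neuronal calcium entry, differed least, at 11.0 ± 2.15 TPM in controls and 9.34 ± 2.82 TPM in LLC (-0.24 ± 0.19, adjusted p = 0.429).

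Control 14 was the lowest neocortical control for 7 of the 10 genes. Without it 6 genes were called lower in LLC, *Fosb* (adjusted p = 0.0229), *Egr1* (0.0137), *Egr2* (0.0333) and *Egr4* (0.0338) in addition to *Arc* (0.0445) and *Ier5* (0.0125). Each of these genes had its lowest control value in control 14, so leaving it out raised their control means. The share of all genes called in that fit is not given here. Calls over all genes in neocortex ran from 187 to 3834 over the fits without each library in turn. Summed pan-neuronal markers (11 genes) also differed in neocortex, from 5492 to 5659 TPM in controls and from 4814 to 5470 TPM in LLC, and 5 of the 11 were called lower, where 2.95% of all genes were. LLC library 2 had the lowest of these sums and the highest level of 8 of the 10 immediate early genes among the LLC libraries. Markers of forebrain excitatory neurons summed to 2475 to 2554 TPM in controls and 2584 to 2943 TPM in LLC. The 6 excitatory markers did not move one way: *Camk2a* rose, from 1175 ± 37.5 to 1345 ± 51.3 TPM, *Neurod6* fell by 0.31 on the log2 scale (adjusted p = 0.0210), and 3 fold changes were positive and 3 negative. Endothelial markers summed to 130 to 170 TPM and 212 to 311 TPM, and all 8 rose, where 5.59% of all genes did. Neutrophil markers summed to 9.38 to 14.6 TPM in controls and 46.1 to 209 TPM in LLC, and 4 of the 7 tested rose. Oligodendrocyte markers summed to 2403 to 2588 TPM and 2102 to 2295 TPM, without overlap, and 3 of 7 fell. All 5 erythroid markers rose, and their sum was 3564 TPM in LLC library 4 and at least 11766 TPM in the other 3 LLC libraries. None of the marker genes of these lists was at 0 in all libraries of a group, and their part in the result was not tested.

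**Figure D2:**
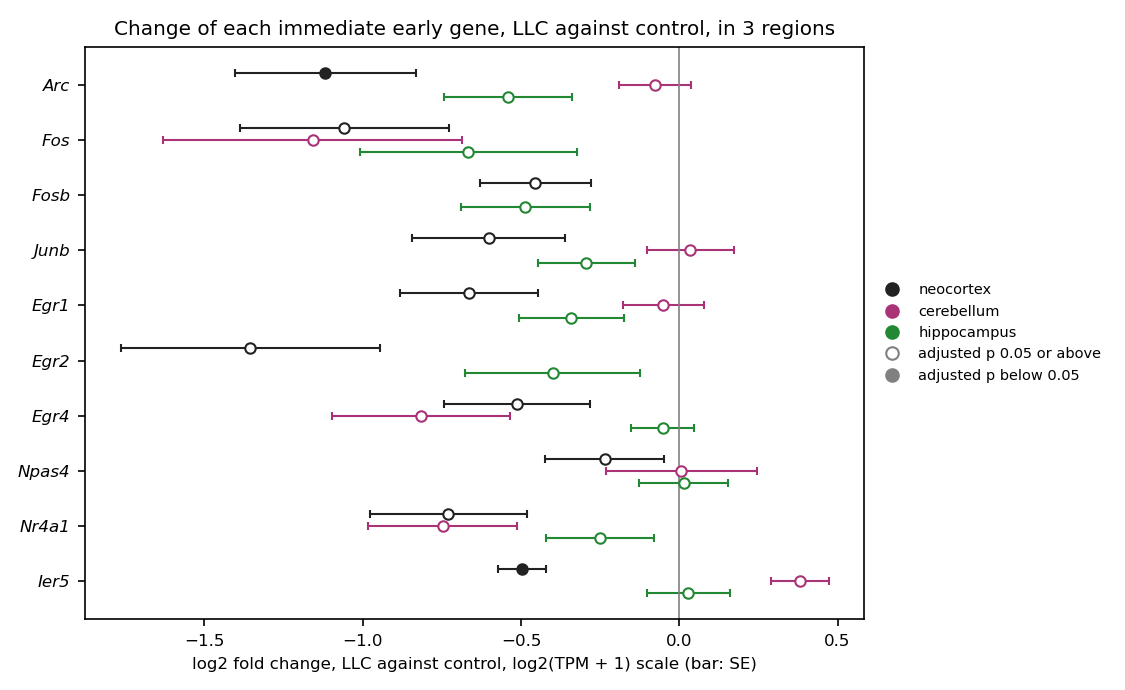
Log2 fold change of each gene (rows) in LLC against control on the log2(TPM + 1) scale (horizontal axis) with its SE (bar), in neocortex (black), cerebellum (purple) and hippocampus (green), filled where the adjusted p was below 0.05. The filled points are *Arc* (-1.12) and *Ier5* (-0.50) in neocortex, and *Ier5* is positive in cerebellum (0.38). *Fosb* and *Egr2* have no cerebellar point because they were not tested there.

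In cerebellum none of the 8 genes tested passed, where 2.5% of 14624 genes did. At an unadjusted p under 0.05, 1 gene was higher and 3 were lower, 4 of 8 against 24.4% of all genes. The median log2 fold change of the 8 was -0.06 and that of all genes -0.04. Over all genes 180 rose and 186 fell, or 435 and 307 after median-ratio scaling.

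*Ier5* was 24.2, 20.2, 19.4 and 20.5 TPM in cerebellar controls 14 to 17 and 24.5, 28.0, 30.8 and 27.8 TPM in LLC 1 to 4. Every LLC library lay above every control, by a small margin for LLC library 1 over control 14. This was the opposite of the order in neocortex, and held in the higher direction for 1 of the 8 genes and for 6.42% of all genes. The log2 fold change was 0.38 ± 0.09, with an adjusted p of 0.0579. It passed after median-ratio scaling (adjusted p = 0.0302) and after quantile normalization (0.0288). It also passed without LLC library 1 (0.44, adjusted p = 0.0174), the library whose region markers stood furthest apart.

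*Fos* was 21.5, 56.8, 28.9 and 13.8 TPM in cerebellar controls and 6.50, 16.5, 6.39 and 22.8 TPM in LLC. LLC libraries 1 and 3 lay below all controls and 2 and 4 lay among them (-1.16 ± 0.47, adjusted p = 0.172). *Nr4a1* was 26.0, 48.0, 35.3 and 26.6 TPM in controls and 14.4, 26.1, 15.2 and 23.7 TPM in LLC. Its groups overlapped only through LLC library 2, which exceeded control 14 (-0.75 ± 0.23, adjusted p = 0.101).

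*Egr4* was 5.32, 9.16, 5.96 and 4.73 TPM in cerebellar controls and 1.30, 4.71, 2.89 and 4.22 TPM in LLC. All LLC libraries were below all controls, by a small margin for LLC library 2, which held in the lower direction for 1 of the 8 genes and for 10.3% of all genes (-0.81 ± 0.28, adjusted p = 0.124). *Arc* (-0.08 ± 0.11), *Egr1* (-0.05 ± 0.13), *Junb* (0.04 ± 0.14) and *Npas4* (0.01 ± 0.24) had log2 fold changes near 0, with adjusted p values from 0.704 to 0.991. Without LLC library 1 they were -0.02, 0.07, 0.07 and -0.06 in that order, with adjusted p values from 0.617 to 0.924, and the signs of *Egr1* and *Npas4* changed. Without that library the values were -0.92 for *Fos*, -0.62 for *Nr4a1* and -0.54 for *Egr4*, and *Ier5* was the 1 gene of 8 called, where 8.84% of all genes were called without it.

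In hippocampus none of the 10 genes passed, where 3.61% of 14650 genes did. At an unadjusted p under 0.05, 2 genes were lower and none higher, 2 of 10 against 22.2% of all genes. The log2 fold changes were negative for 8 genes, with a median of -0.32 against 0.01 for all genes. Over all genes 378 rose and 151 fell, or 320 and 212 after median-ratio scaling.

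*Arc* was 74.1, 102, 89.2 and 85.1 TPM in hippocampal controls and 45.8, 79.0, 43.2 and 80.1 TPM in LLC. LLC libraries 1 and 3 lay well below the controls, and 2 and 4 lay just above the lowest control, 14. The log2 fold change was -0.54 ± 0.20 (adjusted p = 0.156), and without LLC library 4 it was -0.68 (adjusted p = 0.0489).

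*Fosb* was 3.40, 6.10, 4.71 and 5.59 TPM in hippocampal controls and 2.36, 5.13, 2.58 and 3.13 TPM in LLC. LLC library 2 lay inside the control range and the other 3 below it (-0.49 ± 0.20, adjusted p = 0.198). *Fos* had the same order of LLC libraries, at 2.48, 10.1, 4.15 and 6.61 TPM, against 5.56 to 13.7 TPM in controls (-0.67 ± 0.34, adjusted p = 0.286). The remaining log2 fold changes ran from -0.40 for *Egr2* to 0.03 for *Ier5*. *Ier5* averaged 34.7 ± 6.60 TPM in hippocampal controls and 35.1 ± 4.44 TPM in LLC, between its values in the other regions. Pan-neuronal markers summed to 4667 to 4970 TPM in hippocampal controls and 4258 to 4601 TPM in LLC. Of these 11 genes, 2 were called lower and 1 higher, where 3.61% of all genes were called. Endothelial markers summed to 96.8 to 128 TPM in hippocampal controls and 172 to 211 TPM in LLC. In cerebellum the endothelial sums were 147 to 180 TPM in controls and 200 to 308 TPM in LLC. The part of these markers was not tested.

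The difference between regions was tested directly. *Ier5* changed in neocortex and cerebellum by amounts 0.88 ± 0.16 apart on the log2 scale (adjusted p = 0.0139). It was the 1 gene of 8 called for cerebellum minus neocortex, where 0.646% of 13783 genes were called. The value was 0.90 without number 1 (adjusted p = 0.0238) and missed the threshold without number 15 (0.83, adjusted p = 0.0865) or number 16 (0.83, adjusted p = 0.0897). *Arc* differed by 1.04 ± 0.35 between the same regions and did not pass (adjusted p = 0.188). At an unadjusted p under 0.05, 4 of the 8 genes counted, all higher, against 12.9% of all genes. No gene of the 10 passed for hippocampus minus neocortex, where 0% of 14152 genes did and 1 of the 10 had an unadjusted p under 0.05, against 1.91% of all genes. None of 8 passed for hippocampus minus cerebellum, where 0.0936% of 13884 genes did and 2 of the 8 had an unadjusted p under 0.05, against 12.3% of all genes.

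Averaging the 3 regions under each title number gave 1 value per number, on the assumption that a number marks 1 animal. On this mean *Arc* fell, and it was the 1 gene of 10 called, where 13.1% of 14873 genes were called and 5.45% were lower. Its log2 fold change was -0.58 ± 0.16 (adjusted p = 0.0445), with all 4 LLC numbers below all 4 control numbers, as for 8.78% of all genes. The call was lost without any 1 number except LLC 4, with adjusted p values from 0.0515 to 0.127. All 10 fold changes were negative with a median of -0.43, and 7 of 10 genes had an unadjusted p under 0.05, against 32.9% of all genes. *Ier5* was near 0 on the mean (-0.03 ± 0.07), and its neocortical and cerebellar values had opposite signs.

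**Figure D3:**
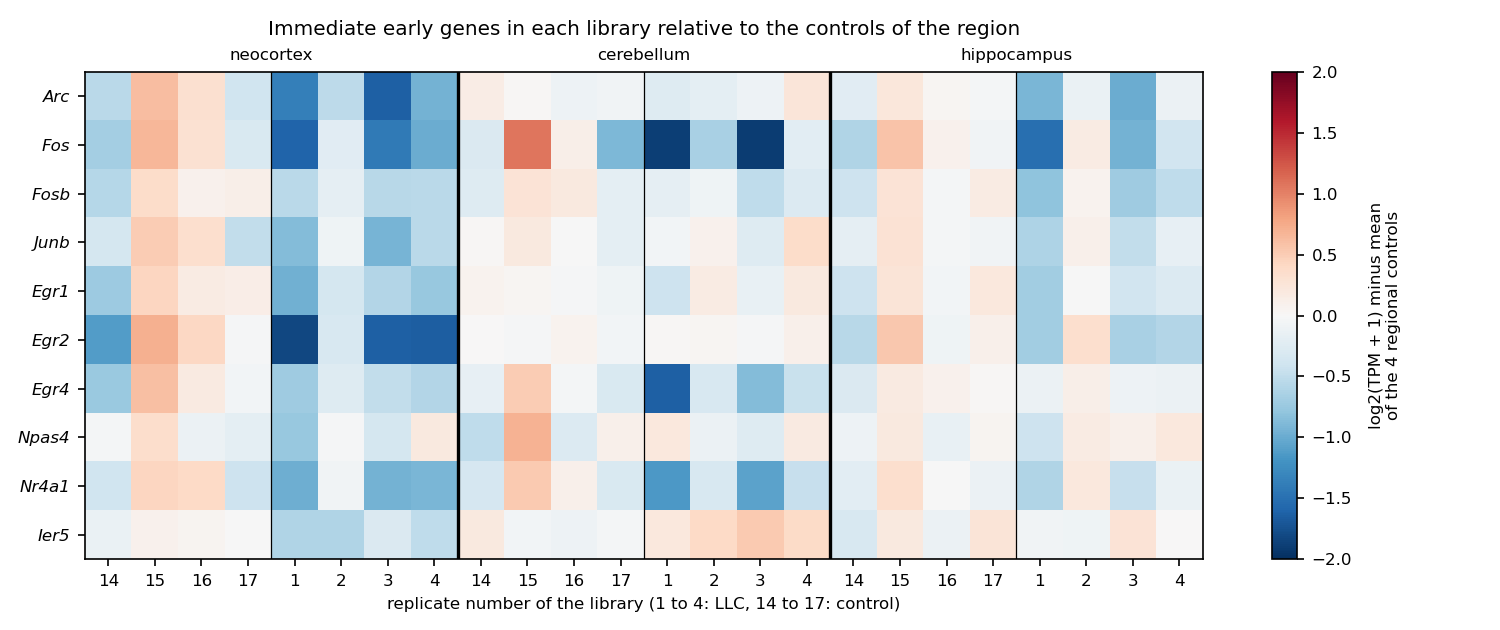
Each cell gives log2(TPM + 1) of 1 gene (row) in 1 library (column, by replicate number) minus the mean of the 4 controls of its region, from blue (lower) to red (higher). Columns rather than single cells change colour together: control 15 is red and control 14 mostly blue in neocortex and hippocampus, LLC 1 and 3 are bluest, and the *Ier5* row is blue in neocortical LLC and red in cerebellar LLC.

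The genes moved together from library to library within groups. After the group means were removed, the pairwise correlation of the 10 genes over the 24 libraries had a median r of 0.65, and 43 of the 45 pairs were positive. The most alike pair was *Fos* and *Nr4a1* (r = 0.93). *Ier5* stood apart with a median r of 0.09 to the other genes, and *Npas4* was next at 0.43. The other 8 genes had medians from 0.62 to 0.75. These are descriptions over libraries that share a scaling to 1 total, and carry no test.

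Part of this shared movement was in controls. The mean over the 10 genes, relative to the controls of the region, was highest in control 15 in all 3 regions, at 0.48 in neocortex, 0.32 in cerebellum and 0.31 in hippocampus. Control 15 had the highest control value for 10 genes in neocortex, 9 in hippocampus and 6 in cerebellum. Control 14 was lowest of the controls in neocortex (-0.53) and hippocampus (-0.33). Among LLC libraries the mean was -1.02, -0.27, -0.88 and -0.72 in neocortex for numbers 1 to 4. It was -0.51, -0.10, -0.46 and 0.01 in cerebellum and -0.65, 0.09, -0.44 and -0.21 in hippocampus. LLC 1 was the lowest in all 3 regions, and LLC 2 was the highest in neocortex and hippocampus. Neocortical LLC library 2 (-0.27) lay above control 14 (-0.53), so the groups overlapped.

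**Figure D4:**
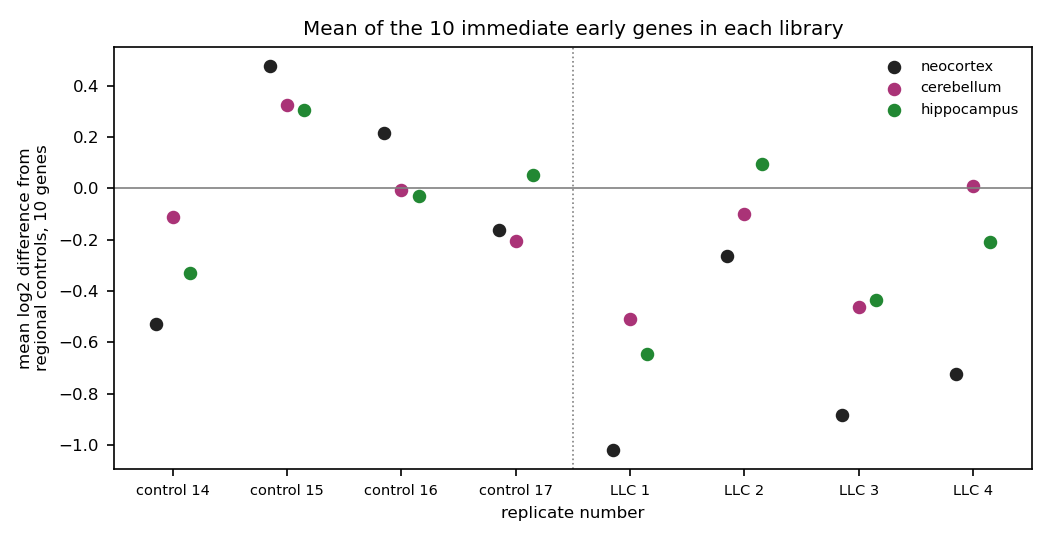
Mean over the 10 genes of log2(TPM + 1) minus the regional control mean (vertical axis) by replicate number (horizontal axis), with points for neocortex, cerebellum and hippocampus. Control 15 is highest in each region (0.31 to 0.48), LLC 1 is lowest in each (-0.51 to -1.02), and LLC and control points overlap.

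The genes most like the 10 in this movement were ranked by their correlation with the mean of the standardised levels over the 24 libraries, group means removed, among 13517 genes. The first 10 were *Fosl2* (r = 0.82), *Gpr3*, *Stk40*, *Pcdhb5*, *Midn*, *Nfil3*, *Trib1*, *Dusp1*, *Ier2* and *Rrbp1* (r = 0.77). *Fosl2* is a Fos relative, *Dusp1* a phosphatase that switches off MAP kinases, and *Ier2* another immediate early gene. Lists of related genes had median r values of 0.64 for 6 AP-1 partners, 0.54 for 11 MAP kinase phosphatases and feedback genes, and 0.44 for 26 other rapid immediate early genes. Delayed activity-regulated genes (0.16) and upstream activators (0.09) lay near the median of all genes (0.15).

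Other rapid immediate early genes did not share 1 direction in LLC. In neocortex 3 of 26 rose and 1 fell, where 8.54% of all genes were called, with a median log2 fold change of -0.08. *Klf10*, a zinc-finger repressor, fell from 37.3 ± 5.96 to 20.6 ± 0.641 TPM (-0.81 ± 0.09, adjusted p = 0.00278). *Maff*, a small Maf factor, rose from 1.17 ± 0.375 to 5.38 ± 2.42 TPM (1.46 ± 0.30, adjusted p = 0.0221). *Ier3*, a survival gene of stressed cells, rose by 0.71 ± 0.14, and *Zfp36*, which promotes messenger RNA decay, by 0.36 ± 0.09.

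In cerebellum *Ier3* was the 1 of 25 such genes to pass, rising by 0.76 ± 0.14 (0.67 without LLC library 1, adjusted p = 0.0157), a share near the 2.5% of all genes called. Without that library *Zfp36* passed as well (0.34, adjusted p = 0.0425), 2 of 25 where 8.84% of all genes were called. In hippocampus 3 of 26 passed, where 3.61% of all genes did, with *Ier3* (0.84 ± 0.18) and *Klf2* (0.72 ± 0.17), a factor known from endothelium, rising and *Klf10* (-0.43 ± 0.07) falling. Closest in family to the 10, *Egr3*, *Nr4a2* and *Nr4a3* had neocortical values of -0.13 ± 0.12, -0.26 ± 0.11 and -0.66 ± 0.28 and did not pass. *Klf10* differed between regions by 1.01 ± 0.14 and *Gadd45b* by 0.60 ± 0.13 for cerebellum minus neocortex (adjusted p = 0.00226 and 0.0360). These were 2 of 25 tested, in the same direction as *Ier5*. The call of *Klf10* was kept without each title number in turn, and that of *Gadd45b* was lost without 7 of the 8 numbers (adjusted p up to 0.214).

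Delayed activity-regulated genes, the targets that follow the first wave, were called lower in 5 of 27 cases in neocortex and 5 of 26 in hippocampus, and in none of 25 in cerebellum, where 10 had an unadjusted p under 0.05 (4 higher, 6 lower). Of all genes, 2.95% were lower in neocortex and 1.03% in hippocampus, and in cerebellum 2.5% were called and 24.4% had an unadjusted p under 0.05. Without cerebellar LLC library 1, 3 of the 25 rose (*Ptgs2*, *Bhlhe40* and *Sertad1*) and 2 fell (*Inhba* and *Nrn1*), with adjusted p values from 0.0174 to 0.0420, where 8.84% of all genes were called. Genes that passed in this added fit are named after their values were seen. With all libraries no gene of the list rose in these 3 comparisons, and its median log2 fold changes were -0.14, -0.15 and -0.12. In neocortex they included *Nptx2*, a pentraxin that clusters glutamate receptors (52.8 ± 2.84 to 41.3 ± 2.87 TPM, -0.35 ± 0.06), *Rheb* (-0.17 ± 0.04), *Rgs2* (-0.29 ± 0.07) and *Gpr3* (-0.62 ± 0.15). In hippocampus they included *Homer1*, a postsynaptic scaffold (-0.31 ± 0.06), *Cort*, the neuropeptide cortistatin (-0.81 ± 0.16), *Pcsk1*, a prohormone convertase (17.2 ± 1.75 to 10.8 ± 2.09 TPM, -0.64 ± 0.13), and *Rgs4* (-0.36 ± 0.08). *Bdnf*, a neurotrophin of this list, had -0.32 ± 0.09 in neocortex and did not pass (adjusted p = 0.0602). On the mean of the regions 8 of 26 genes of the list were lower and 1 was higher, where 13.1% of all genes were called. The gene that rose was *Nptx1* (0.22 ± 0.04, adjusted p = 0.0146).

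Of 29 upstream activators, 5 rose in neocortex and 6 in hippocampus, none fell, and none passed in cerebellum, where 7 had an unadjusted p under 0.05 (1 higher, 6 lower). Of all genes, 5.59% rose in neocortex and 2.58% in hippocampus, and the 7 of 29 in cerebellum lay near the 24.4% of all genes with such a p. Without cerebellar LLC library 1, *Rps6ka5* fell there (-0.26, adjusted p = 0.0254). The medians of the list were 0.07 in neocortex, 0.07 in hippocampus and -0.07 in cerebellum. The neocortical calls included *Mapk3*, the kinase ERK (184 ± 5.90 to 226 ± 15.3 TPM, 0.29 ± 0.05), *Elk3* (0.45 ± 0.09), *Camk2a* (0.20 ± 0.04) and *Mkl1*, a coactivator of serum response factor (0.28 ± 0.06). The hippocampal calls included *Elk3* (0.45 ± 0.08), *Camk2b* (0.29 ± 0.06), *Mkl1* (0.32 ± 0.06) and *Crtc1*, a CREB coactivator (0.25 ± 0.05). *Rps6ka5*, a nuclear kinase of this list, differed between cerebellum and neocortex by -0.65 ± 0.15 (adjusted p = 0.0459), a call lost without 6 of the 8 title numbers (adjusted p up to 0.265).

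Smaller lists gave few calls in neocortex, where 8.54% of all genes were called, and none in the other 2 regions. Without cerebellar LLC library 1 the partner *Triobp* rose in cerebellum (0.49, adjusted p = 0.0124). *Maff* was the 1 of 7 AP-1 partners to pass in neocortex, and *Dusp14* (-0.28 ± 0.08) the 1 of 11 MAP kinase phosphatases and feedback genes. Of 9 known partners of the 10 genes' proteins, *Rxra* (0.35 ± 0.08), a nuclear receptor that pairs with Nr4a1, and *Dnm2* (0.22 ± 0.05), a dynamin, rose in neocortex. The counts at an unadjusted p under 0.05 in cerebellum and hippocampus were 1 and 2 for AP-1 partners, 1 and 1 for MAP kinase feedback, and 2 and 1 for partner proteins, against 24.4% and 22.2% of all genes. Of the 27 calls for the genes named from these lists in the 3 regions, 24 were lost without at least 1 library. Of the same calls, 22 were lost in at least 1 of the other alternatives, among them *Nptx2* in neocortex with all 24 libraries in 1 fit (adjusted p = 0.0506), *Camk2a* in neocortex (up to 0.506) and *Rgs4* in hippocampus (up to 0.290). The calls of *Klf10* and *Mapk3* in neocortex were the 2 kept in every alternative run.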

How the data were processed

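Per the labels' protocols, stranded TruSeq mRNA libraries of each region were run on a NovaSeq. The deposited table gives TPM values made by the authors, on build mm10 according to the submitters' processing notes. Which aligner and counting tool were used, and whether strand was, is not given in the sources used here. Read depth is unknown. Values were taken as log2(TPM + 1), and genes with a mean of at least 1 TPM in the libraries compared were tested with limma 3.58.1 (R 4.3.3, lmFit and eBayes with trend, two-sided) with Benjamini-Hochberg adjustment over all genes tested, called at 0.05. The pseudocount of 1 understates changes of low genes. The fit was tested on simulated data. No 2 of the 24 libraries were identical, and the labels call them biological replicates. Median-ratio scaling divides each library by the median ratio of its genes to their geometric mean. Named were the 10 genes, up to 4 passing genes per related list and comparison, and the 10 most correlated genes. Genes and lists were chosen with earlier results of these data known. Figures were drawn with matplotlib 3.10.9.

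Title numbers 14 to 17 and 1 to 4 and the description numbers shared by LLC and control libraries were used as blocks in alternatives only. Other alternatives were a pseudocount of 0.1, a mean of 5 TPM or no filter, median-ratio scaling, quantile normalization, robust eBayes, library weights, 1 fit of all 24 libraries, and leaving out each library. The cerebellar counts of related lists without LLC library 1 were added after seeing the data.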

Additional observations from a re-analysis of the deposited data

Results flagged for a closer look

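In 5 of the 60 groups of 4 libraries, 1 library lay far from the other 3 by Dixon's criterion, which chance gives in about 1 group in 20. All 5 were the highest value of an LLC group and all came from LLC replicate 2. The genes moved together, with a median pairwise r of 0.73 in neocortex and 0.79 in hippocampus. The groups are therefore not separate events, and the rate of 1 in 20 does not judge their number. In neocortex they were *Fosb* at 10.01 TPM, *Egr2* at 6.67 TPM and *Nr4a1* at 108 TPM. In hippocampus they were *Egr2* at 1.87 TPM and *Egr4* at 23.1 TPM.

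Among the immediate early genes and the related lists, the LLC effect of 4 genes differed between cerebellum and neocortex. This is by the test of the difference itself (limma, Benjamini-Hochberg adjustment), which called 89 of all 13783 genes tested (0.646%). Cerebellum minus neocortex gave 0.88 for *Ier5* (adjusted p = 0.0139), 1.01 for *Klf10* (0.00226), 0.60 for *Gadd45b* (0.0360) and -0.65 for *Rps6ka5* (0.0459) on the log2 scale. With each title number left out in turn, the call of *Klf10* was kept. That of *Gadd45b* was lost without 7 of the numbers (adjusted p up to 0.214) and that of *Rps6ka5* without 6 (up to 0.265). The call of *Ier5* was lost without 2 of them (up to 0.0897). *Ier5* was lower in 4 of 4 neocortical LLC libraries than in every control and higher in 4 of 4 cerebellar ones. In cerebellum the margin was small between LLC library 1 (24.5 TPM) and control 14 (24.2 TPM).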

How the results depend on the processing

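The fall of *Ier5* in neocortex passed the threshold in every alternative run, and that of *Arc* did not pass with no filter (adjusted p = 0.0846), quantile normalization (0.0507) or robust eBayes (0.0901). Counts of the 10 genes called in neocortex were 1 with no filter, 1 with quantile normalization, 1 with robust eBayes and 9 with library weights. In cerebellum they were 1 with median-ratio scaling, 1 with quantile normalization, 2 with library weights and 3 with all 24 libraries in 1 fit. On the mean of the regions they were 0 with no filter and 0 with robust eBayes, and for the differences 3 with library weights for cerebellum minus neocortex and 1 for hippocampus minus cerebellum. Leaving out 1 library gave counts of 1 to 6 in neocortex, 0 to 1 in cerebellum, 0 to 1 in hippocampus, 0 to 1 on the mean and 0 to 1 for cerebellum minus neocortex. The cause was not tested.

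Over all genes in neocortex, calls numbered 577 with no filter, 4337 with library weights and 784 with 1 fit of all libraries. In cerebellum they numbered 71 with no filter, 742 with median-ratio scaling, 801 with quantile normalization, 5769 with library weights and 3012 with 1 fit. In hippocampus they numbered 220 with no filter and 1180 with library weights, and on the mean 1088 and 5308. Cerebellum minus neocortex gave 49 with no filter and 2052 with library weights, and hippocampus minus neocortex 2 with no filter. Hippocampus minus cerebellum gave 3 with a filter at 5 TPM, 21 with no filter, 20 with quantile normalization and 595 with library weights. Leaving out 1 library gave 187 to 3834 calls in neocortex, 6 to 1570 in cerebellum, 57 to 1667 in hippocampus and 379 to 4331 on the mean. It gave 4 to 287 for cerebellum minus neocortex and 1 to 220 for hippocampus minus cerebellum. In neocortex, cerebellum and hippocampus the highest of these counts was without LLC replicate 4. The causes were not tested.

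With the description number as a replicate block, 6 of the 10 genes were called in neocortex, 1 in cerebellum, 1 in hippocampus and 7 on the mean. Over all genes 641, 724 and 179 were called in the 3 regions. On the mean 13.1% of all genes were called without the block, and the share with the block is not given here. With the title number as a replicate block, 266 genes were called for cerebellum minus neocortex and 84 for hippocampus minus cerebellum. LLC and control libraries of 1 description number deviated together (r over 0.1) in 0 of 4 pairs in neocortex, 3 of 4 in cerebellum and 2 of 4 in hippocampus. Libraries of 1 title number did so in 7 of 8 pairs between neocortex and cerebellum, 6 of 8 between cerebellum and hippocampus and 3 of 8 between neocortex and hippocampus. Between neocortex and cerebellum each library correlated best with its own number in 8 of 8 cases, in either direction. Between cerebellum and hippocampus this held in 7 of 8 cases, and between neocortex and hippocampus in 3 of 8, in either direction. That is a hint from the data and not from the design, and it was weak between neocortex and hippocampus. The mean of the regions assumes it for all 3.

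The reversed log2 values were all of fold changes that had not passed. In cerebellum library weights gave 0.12 for *Egr1* and -0.099 for *Npas4*. In hippocampus quantile normalization gave -0.0052 for *Npas4*, and library weights gave -0.038 for *Npas4* and -0.086 for *Ier5*. On the mean quantile normalization gave 0.0027 for *Ier5*. For cerebellum minus neocortex median-ratio scaling gave 0.046 for *Nr4a1*, and library weights gave 0.29 for *Fos*, 0.14 for *Egr4* and 0.24 for *Nr4a1*. For hippocampus minus cerebellum *Npas4* was -0.015 with a pseudocount of 0.1, -0.033 with median-ratio scaling and -0.0049 with quantile normalization. Leaving out 1 library gave, in cerebellum, -0.076 to 0.13 for *Junb*, -0.13 to 0.072 for *Egr1* and -0.17 to 0.24 for *Npas4*. In hippocampus it gave -0.15 to 0.0059 for *Egr4*, -0.048 to 0.16 for *Npas4* and -0.080 to 0.11 for *Ier5*. On the mean it gave -0.16 to 0.067 for *Npas4* and -0.097 to 0.013 for *Ier5*. For cerebellum minus neocortex it gave -0.39 to 0.036 for *Fos*, -0.00045 to 0.36 for *Npas4* and -0.18 to 0.059 for *Nr4a1*. It gave -0.12 to 0.044 for *Fosb* in hippocampus minus neocortex and -0.16 to 0.22 for *Npas4* in hippocampus minus cerebellum.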
